A study of Homo sapiens with 9 samples.

Results

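The distal end of the long arm of chromosome 3, from 3q26 to 3q29, holds LINC00885, the long noncoding RNA gene whose transcript is called PARylator. The genes around it are described here in TE13, an esophageal squamous cell carcinoma cell line. The 125 members were selected on position and on a measured value. Each was a row of the 60605-gene table on chromosome 3, from GOLIM4 (start 168008689, GRCh38) to FAM157A (end 198222513), with a gene symbol, and its FPKM averaged 0.5 or more over the 9 libraries. FPKM scales fragments to exon length and library size, so it can be compared between genes. LINC00885 itself was kept whatever its level. SOX2, TP63, TNFSF10, ECT2, RFC4, HES1, PSMD2, other LINC genes and genes named RPL or NDUF were left out by name. Of 603 rows in the region 419 carried a symbol, of which 277 were under 0.5 FPKM and 17 were left out by name.

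Poly(A)+ RNA of TE13 cells was sequenced in 3 groups of 3 libraries. One group received a control siRNA and the others received PARylator siRNA.1 or PARylator siRNA.2, which are directed at the LINC00885 transcript. All 9 libraries came from this 1 line, the labels name no drug, and the interval between transfection and harvest is not given in the sources used here. The study describes its RNA-seq as experimental repeats and does not say whether these were separate cultures. Every p-value thus rests on the spread between libraries, which may be technical. The test used here moderates each gene's spread with that of other genes, so an SE can be smaller than a gene's own libraries imply.

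Distal 3q is gained in many squamous cell carcinomas, and a gain raises the dosage of many neighbouring genes together. The segment carries genes of unlike function. They include PIK3CA (the catalytic subunit of a lipid kinase that relays growth factor signals), EIF4G1 (the scaffold on which translation starts), TFRC (the receptor that brings in iron-loaded transferrin), CLDN1 (a tight junction strand protein) and the membrane mucin MUC4. A short interfering RNA acts on transcripts and leaves gene copies as they are.

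The stretches of sequence that the results below refer to are shown first. RTP4 is an interferon-induced chaperone that carries receptors to the cell surface, and it had the largest rise among the members that passed the test. The 250 bases before its start, as RefSeq gives them for GRCh38.p14 (chr3:187368135-187368384, plus strand), hold the letters GAAANNGAAA, the core of an interferon-stimulated response element, at 42 and at 18 bases before the start. Both matches are in capitals.

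RTP4 promoter: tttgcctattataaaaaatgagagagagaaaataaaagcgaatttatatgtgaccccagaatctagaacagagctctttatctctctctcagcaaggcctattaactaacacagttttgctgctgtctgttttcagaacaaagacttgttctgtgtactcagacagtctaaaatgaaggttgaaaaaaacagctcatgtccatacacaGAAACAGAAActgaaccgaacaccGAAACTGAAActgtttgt

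RefSeq promoter windows of equal length around the start matched 103 of the 125 members by symbol. Searched on both strands, the letters were found in 3 of these 103 windows (2.91%) and in 996 of all 27305 windows (3.65%). The other members with a match were YEATS2 and OPA1-AS1. YEATS2 held 2 matches, as RTP4 did. By edgeR its log2 fold changes were 0.25 with siRNA.1 (adjusted p = 8.66e-05) and 0.12 with siRNA.2 (adjusted p = 0.0814). OPA1-AS1 held 1 match and passed the test with neither siRNA. LAMP3, the other member with a rise of the size of that of RTP4, was not among the members whose window held the letters.

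Members also lie in divergent pairs, on opposite strands with their starts close together. In 9 such pairs the starts lay within 1 kb. The genes overlapped at their starts in the pairs EIF2B5-DT and EIF2B5, LPP-AS2 and LPP, and WDR53 and FBXO45. For 3 of them, the bases between the starts (GRCh38, plus strand, CG dinucleotides in capitals) are shown because the members of each pair differed in their values below. The stretches are chr3:196942595-196942673, chr3:184361651-184361717 and chr3:197960143-197960199 in this order.

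NCBP2 and NCBP2AS2: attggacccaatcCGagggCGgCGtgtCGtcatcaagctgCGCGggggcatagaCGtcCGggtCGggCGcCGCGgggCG
CLCN2 and POLR2H: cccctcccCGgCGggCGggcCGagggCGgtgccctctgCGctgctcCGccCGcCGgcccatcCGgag
IQCG and LMLN: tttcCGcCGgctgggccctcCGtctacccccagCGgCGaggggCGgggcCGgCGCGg

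The stretch between NCBP2 and NCBP2AS2 held 13 CG dinucleotides in 79 bases. That between CLCN2 and POLR2H held 10 in 67 bases and that between IQCG and LMLN held 9 in 57 bases.

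TFRC mRNA carries hairpins in its 3′ untranslated region, the iron-responsive elements, to which the iron regulatory proteins bind when iron is scarce and so keep the mRNA from decay. Searching the 2658 bases after the TFRC stop codon for a C, 5 bases, the loop CAGTGN and 5 bases pairing with the first 5 (G with T allowed) found 4 hairpins. They lay at chr3:196050985-196051001, chr3:196050581-196050597, chr3:196050516-196050532 and chr3:196050469-196050485 (GRCh38, minus strand). The loop is in capitals.

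TFRC loop 1: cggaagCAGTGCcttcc
TFRC loop 2: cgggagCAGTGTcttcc
TFRC loop 3: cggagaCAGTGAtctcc
TFRC loop 4: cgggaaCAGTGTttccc

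Library totals ran from 15337917 to 22559998 counts, and the members held 0.773% to 0.816% of the counts of each library. Mitochondrial genes took 7.46% to 7.66% of counts with control siRNA, 4.99% to 5.06% in the siRNA.1 libraries and 5.54% to 5.56% in those of siRNA.2. All 10 squamous epithelium markers were at 1 FPKM or more in each group, with a summed level of 885 to 897 FPKM with control siRNA, 638 to 667 in the siRNA.1 libraries and 629 to 653 in those of siRNA.2. Of 5 fibroblast markers 1 (COL1A1) and of 4 endothelium markers none reached 1 FPKM in any group. Of 5 blood markers only LYZ reached 1 FPKM, with both PARylator siRNAs, and their sum was 0.14 to 0.66 FPKM with control siRNA, 3.08 to 3.62 in the siRNA.1 libraries and 2.96 to 3.73 in those of siRNA.2. The part that these shifts had in the results below was not tested.

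LINC00885 (ENSG00000224652, chr3:196142525-196160893, plus strand) was near the detection limit in every library. With control siRNA it had 6, 7 and 12 counts (0.17, 0.19 and 0.29 FPKM). With siRNA.1 it had 4, 5 and 2 counts (0.1, 0.14 and 0.05 FPKM), and with siRNA.2 it had 2, 0 and 4 counts (0.04, 0 and 0.08 FPKM). Every siRNA library was below every control library on the FPKM scale. Summed over libraries and scaled to the totals, siRNA.1 left 42.5% of the control level (95% exact binomial interval 18.9% to 89.5%, counting error only) and siRNA.2 left 19.0% (6.38% to 47.5%). In the fit over all genes the log2 fold changes were −1.21 ± 0.94 (SE, adjusted p = 0.376) and −2.33 ± 1.01 (adjusted p = 0.0659), so the fall of the target did not pass the threshold with either siRNA at this depth. The interval of the summed counts lay below the control level for both. The study also measured the knockdown of PARylator by qPCR, whose values were not part of the data used here.

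The members as a whole stood at ordinary levels for this cell line. With control siRNA their median was 4.59 FPKM, against 4.74 FPKM for the 14866 genes of the table with a mean of at least 0.5 FPKM. Of the 125 members 38 had a mean of 10 FPKM or more, 69 lay from 1 to 10 and 18 were under 1 FPKM. Just above the limit lay RNU6ATAC24P (0.539), KCNMB3 (0.564) and SEC62-AS1 (0.578 FPKM), and just under it KIF3AP1 (0.499), RN7SL738P (0.48) and PIGZ (0.472). Apart from LINC00885, 4 members were under 0.5 FPKM with control siRNA and 2 with either PARylator siRNA, so a few members entered through the libraries where they were higher. These 4 were NMRAL2P, PLAAT1, OPA1-AS1 and Y_RNA.

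CLDN1 was the most abundant member, at 111 ± 6.84 FPKM (SD, n = 3) with control siRNA. EIF4G1, TFRC, AP2M1 (the cargo-binding subunit of the clathrin adaptor AP-2) and EIF4A2 (an RNA helicase of the translation initiation complex) followed it in mean level. By GENCODE 44, 104 members were protein coding, 11 were long noncoding RNAs and 10 were pseudogenes or small RNAs. Another row with reads overlapped 88 of the 125 members. Whether the counting used strand is not stated, so reads of overlapping and antisense genes cannot be told apart, and small RNAs in poly(A)+ libraries are uncertain.

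Against control siRNA, 19 members rose and 30 fell with siRNA.1, that is 15.2% and 24% of the 125. Among all 21397 genes tested, 15% rose and 15.2% fell, and among the 14866 genes of at least 0.5 FPKM, the level that the members had to reach, 20% rose and 20.5% fell. With siRNA.2, 18 members (14.4%) rose and 31 (24.8%) fell. The rises with each siRNA include NMRAL2P, which was under 0.5 FPKM with control siRNA. Of all genes tested 15.8% rose and 15.1% fell with siRNA.2, and of those at 0.5 FPKM or more 21.1% rose and 20.3% fell. Set against genes at like level, the members' shares were thus lower among the rises and higher among the falls, and no test of these gaps was run. The direction of this gap was the same with both siRNAs, which were set against the same 3 control libraries.

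Changes of the members were mostly small. Their median log2 fold change was −0.02 under either siRNA, where all genes tested had −0.00 and 0.00. Their quartiles lay at −0.25 and 0.17 with siRNA.1 and at −0.25 and 0.20 with siRNA.2. With a log2 fold change of at least 0.5 required as well, 6 rose and 9 fell with siRNA.1, and 4 rose and 8 fell with siRNA.2. Under the same rule, of the 14866 genes of at least 0.5 FPKM, 1038 rose and 930 fell with siRNA.1. With siRNA.2 1052 of them rose and 1012 fell. At this cutoff the members' shares of falls were near those of these genes, and their shares of rises were lower. On the rest of chromosome 3, 635 genes reached 0.5 FPKM. Of these 21.3% rose and 19.8% fell with siRNA.1, and 20.9% rose and 19.1% fell with siRNA.2. Here as in other bulk samples, fewer cells with a transcript and less of it per cell cannot be told apart.

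**Figure D1:**
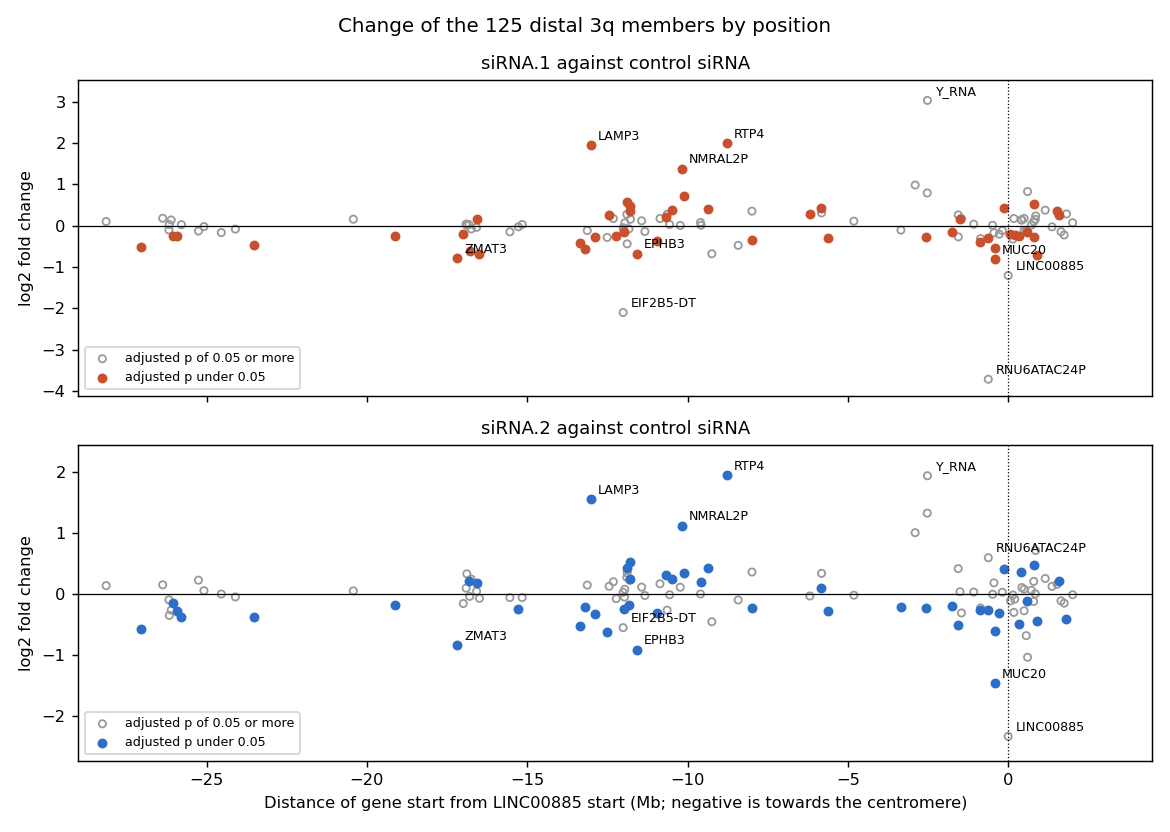
The log2 fold change of each of the 125 members (vertical axis) is plotted against the distance of its start from that of LINC00885 in Mb (horizontal axis) for each siRNA, with filled points for an adjusted p under 0.05 and open points otherwise. Most points lie close to 0, the filled points of LAMP3 and RTP4 stand above 1.5 with both siRNAs, and MUC20 lies lowest among the filled points, near the dotted line that marks the LINC00885 start.

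Along the arm, calls in both directions lay among each other, and their balance varied. Taken in consecutive windows of 4 Mb, the 30 members from EIF2B5-DT to BCL6 had 9 rises and 3 falls with siRNA.1 and 10 rises and 4 falls with siRNA.2. These rises were 30% and 33.3% of the window and the falls 10% and 13.3%, where genes of at least 0.5 FPKM had 20% and 21.1% rises and 20.5% and 20.3% falls. The rises with each siRNA include NMRAL2P, which averaged 0.373 FPKM with control siRNA, so that its rise is tied to its selection. The 21 members from MB21D2 to SDHAP1 had 1 rise and 6 falls with siRNA.1, and their 9 calls with siRNA.2 were falls, so that falls made 28.6% and 42.9%. The 12 members nearest to the centromere, from GOLIM4 to PLD1, had 3 and 4 calls, all of them falls (25% and 33.3%). The 11 members from TBL1XR1 to USP13 had 1 rise and 5 falls with siRNA.1 (45.5% falls), and 2 of each with siRNA.2 (18.2%). The 12 from TTC14 to ABCC5 had 2 rises and 4 falls (33.3%), then 1 rise and 5 falls (41.7%). The 28 from TFRC to FAM157A, LINC00885 not counted, had 4 rises and 6 falls, then 4 of each. The other windows held 3 and 7 members, too few to describe. The windows were described with no test.

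RTP4 and LAMP3 had the largest rises. RTP4 stood at 0.56, 0.73 and 0.6 FPKM with control siRNA, at 1.58, 3.64 and 2.56 with siRNA.1 and at 2.76, 2.43 and 2.16 with siRNA.2. No PARylator siRNA library overlapped a control library, while the siRNA.1 libraries spread widely among themselves. On the log2 scale it rose by 2.00 ± 0.30 (SE, adjusted p = 4.4e-10) and 1.94 ± 0.30 (adjusted p = 9.28e-10).

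LAMP3, a lysosomal membrane glycoprotein known from mature dendritic cells and inducible by interferon, stood at 7.29, 6.2 and 6.3 FPKM with control siRNA. With siRNA.1 it reached 25.7, 24.6 and 27 FPKM and with siRNA.2 20, 18.7 and 19.6. The 3 groups did not overlap at all. The rise was 3.84-fold with siRNA.1 (log2 1.94 ± 0.07) and 2.92-fold with siRNA.2 (log2 1.55 ± 0.07), and the siRNAs differed directly, by −0.39 on the log2 scale for siRNA.2 against siRNA.1 (adjusted p = 1.18e-08).

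The members were also grouped by role, and no test compared a list with other genes or with another list. Counts of calls in small lists are a description, to be read against the 20% and 21.1% rises and the 20.5% and 20.3% falls among genes of at least 0.5 FPKM. RTP4 and LAMP3 were the risers of a list of 5 members known to answer to interferon or infection. IL1RAP, the shared co-receptor of IL-1 family receptors, and B3GNT5, a transferase that starts a class of glycolipids, fell with both siRNAs by edgeR, though IL1RAP passed with neither by limma. B3GNT5 had log2 fold changes of −0.27 and −0.33. NRROS did not pass the test, with −0.12 and −0.28. Of 24 interferon-stimulated genes encoded outside this region, 23 rose with either siRNA, with medians of 2.02 and 1.88. Their summed level was 595 to 662 FPKM with control siRNA, 2390 to 2499 in the siRNA.1 libraries and 2141 to 2189 in those of siRNA.2. The list was assembled with these results known, so its count is no independent evidence. The sum of blood markers moved with these genes (above), and PTPRC and CD3E stayed under 0.5 FPKM in the mean of every group.

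Among members that act in membrane traffic and secretion, 4 of 16 rose and 4 fell with each siRNA. TFRC, the nearest member on the centromeric side of LINC00885 (chr3:196027183-196082096, minus strand), stood at 49.8, 46.8 and 45.7 FPKM with control siRNA. It stood at 63.8, 65.5 and 64.8 with siRNA.1 and at 63, 62.1 and 64.7 with siRNA.2. The controls lay below all other libraries. TFRC rose by 0.42 ± 0.04 on the log2 scale (adjusted p = 3.7e-24) and 0.40 ± 0.04 (adjusted p = 1.52e-22), and the siRNAs did not pass a direct test (−0.02 ± 0.04). The other risers were LAMP3, TMEM41A and, with 1 siRNA each, RUBCN or DNAJB11.

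Members of this list that fell included ATP11B, which moves phospholipids between membrane leaflets. It stood at 12.3, 11.8 and 12.6 FPKM with control siRNA, at 9.14, 9.33 and 9.3 with siRNA.1 and at 8.58, 8.7 and 8.49 with siRNA.2. The groups were narrow and did not overlap, though the siRNAs did not pass a direct test (−0.09, adjusted p = 0.373). ACAP2, a GTPase-activating protein of ARF6, fell by 0.41 and 0.27 on the log2 scale.

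The hairpins shown for TFRC belong to the pathway of iron homeostasis. In a list of 8 other genes of that pathway, 1 rose and 3 fell with each siRNA, with medians of −0.07 and −0.28. FTL, the ferritin light chain, rose with siRNA.1 (0.27, adjusted p = 4.11e-13) and had 0.05 with siRNA.2 (adjusted p = 0.265). FTH1, the ferritin heavy chain, had −0.09 and −0.47, both past the threshold. ACO1, one of the iron regulatory proteins, fell by 0.71 and 0.81. These genes did not move in 1 direction, and no iron was measured.

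Members of translation and RNA metabolism moved in both directions, with 5 of 15 higher and 2 lower with siRNA.1 and 4 higher and 3 lower with siRNA.2. EIF4A2 stood at 38.1, 42 and 37.7 FPKM with control siRNA, at 51.7, 52.4 and 53.9 with siRNA.1 and at 52.7, 53 and 53.4 with siRNA.2. The control libraries lay below all others, and the rises were 0.40 ± 0.04 and 0.42 ± 0.04 on the log2 scale. Its relative EIF4A1, encoded outside this region, had 0.22 (adjusted p = 0.122) and 0.18 (adjusted p = 0.23).

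EIF4G1, on which EIF4A binds, went the other way. It stood at 92.4, 92.4 and 90.7 FPKM with control siRNA, at 89, 87.5 and 89.4 with siRNA.1 and at 81.1, 82.3 and 82.1 with siRNA.2. It changed by −0.08 ± 0.04 on the log2 scale (adjusted p = 0.0897) and −0.18 ± 0.04 (adjusted p = 8.04e-06). The direct difference of the siRNAs had an adjusted p of 0.0513. IGF2BP2, an RNA-binding protein that stabilises mRNAs, rose by 0.37 ± 0.05 and 0.24 ± 0.05, and its relatives IGF2BP1 and IGF2BP3 outside the region rose as well, IGF2BP3 by 0.55 and 0.39.

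ZMAT3, a zinc finger RNA-binding protein known as a target of p53, was the largest faller of this list. With control siRNA it stood at 2.2, 2 and 2.24 FPKM, with siRNA.1 at 1.16, 1.26 and 1.37 and with siRNA.2 at 1.31, 1.1 and 1.2. All 6 libraries with a PARylator siRNA were below all controls. The log2 fold changes were −0.79 ± 0.11 and −0.84 ± 0.11. EEF1AKMT4, a lysine methyltransferase of elongation factor eEF1A, had 0.27 with both and did not pass the test.

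At the cell surface and its junctions, 3 of 14 members rose and 6 fell with siRNA.1, and 2 rose and 6 fell with siRNA.2. The falls were 42.9% of the list with each, against 20.5% and 20.3% of genes of at least 0.5 FPKM. The fallers with either siRNA were LPP, MUC4, MUC20, DLG1, IL1RAP and EPHB3. For LPP the libraries of each siRNA overlapped the controls. MUC20 and MUC4, membrane-bound mucins of epithelia, are neighbours at about 0.4 Mb from LINC00885. MUC20 (chr3:195720884-195741123, plus strand) stood at 3.97, 3.93 and 3.81 FPKM with control siRNA, at 1.91, 2.46 and 2.43 with siRNA.1 and at 1.43, 1.53 and 1.32 with siRNA.2. The 3 groups were apart, in that order. The log2 fold changes were −0.81 ± 0.11 and −1.46 ± 0.11, with a direct difference of −0.65 ± 0.12. The row MUC20-OT1, which overlaps MUC20, had 0.01 and −0.01.

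MUC4 stood at 11.4, 8.73 and 8.89 FPKM with control siRNA, at 5.67, 8.21 and 6.49 with siRNA.1 and at 7.49, 5.93 and 5.8 with siRNA.2. The lowest control library lay close above the highest siRNA.1 library. The log2 fold changes were −0.54 ± 0.05 (adjusted p = 3.41e-26) and −0.61 ± 0.05 (adjusted p = 2.63e-33). These SEs come from a fit that moderates the spread across genes, and the MUC4 libraries spread more widely within groups than they imply.

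DLG1, a scaffold that holds the lateral membrane of epithelial cells, stood at 11.9, 10.9 and 11.3 FPKM with control siRNA, at 6.72, 7.28 and 7.23 with siRNA.1 and at 8.97, 8.14 and 8.24 with siRNA.2. The groups did not overlap, and the fall was larger with siRNA.1 (−0.71 ± 0.05) than with siRNA.2 (−0.44 ± 0.05), with a direct difference of 0.27 ± 0.05 (adjusted p = 3.67e-06). EPHB3, a receptor tyrosine kinase for ephrin-B ligands, stood at 1.83, 1.93 and 1.87 FPKM with control siRNA. It had 1.01, 1.28 and 1.3 FPKM with siRNA.1 and 0.86, 1.08 and 1.07 with siRNA.2. All 6 values lay below the controls, and on the log2 scale the falls were −0.68 ± 0.18 and −0.91 ± 0.18.

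CLDN1 rose with siRNA.1, from 119, 107 and 108 FPKM to 150, 155 and 153 (log2 0.42 ± 0.04). With siRNA.2 it stood at 122, 120 and 120 FPKM (log2 0.10 ± 0.04, adjusted p = 0.0326), and the siRNAs differed by −0.32 ± 0.04 (adjusted p = 5.14e-14). The change with siRNA.2 was small and lost its call under 10 other settings, by DESeq2, by limma with each of 3 pseudocounts, with RLE size factors, with a replicate block, and without control siRNA 2 or 3 or siRNA.2 2 or 3, with adjusted p-values from 0.00193 to 0.246 over all settings.

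Of 15 signalling members 6 fell with siRNA.1, 8 fell with siRNA.2, and in both cases CLCN2, a chloride channel, was the single riser. The falls were 40% and 53.3% of the list, against 20.5% and 20.3% of genes of at least 0.5 FPKM. Of these falls, PIK3CA and IL1RAP with siRNA.1 and IL1RAP and PPP1R2 with siRNA.2 lost their call under other settings. The falls of PRKCI and PAK2 with either siRNA and of DVL3 and SKIL with siRNA.2 were not checked under other settings. The list's medians were −0.15 and −0.25. PRKCI, an atypical protein kinase C of cell polarity, and PAK2, a kinase downstream of RAC and CDC42, were among the fallers with either siRNA. PIK3CA stood at 2.51, 2.4 and 2.49 FPKM with control siRNA, at 2.1, 2.23 and 2.26 with siRNA.1 and at 2.38, 2.17 and 2.15 with siRNA.2. All libraries with a PARylator siRNA were below the controls, by a small margin. Its log2 fold changes were −0.20 ± 0.08 (adjusted p = 0.0423) and −0.16 ± 0.08 (adjusted p = 0.116), and the call with siRNA.1 was lost by limma, with a replicate block and without any one of the 6 libraries (adjusted p from 0.0277 to 0.201 over all settings).

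Relatives and regulatory subunits of PIK3CA encoded outside the region are given beside it. PIK3CB, another catalytic subunit of the family, fell by 0.67 and 0.23 on the log2 scale, and PIK3R3, a regulatory subunit, fell by 0.98 and 0.63. PIK3CD fell with siRNA.1 (−0.23, adjusted p = 0.0258) and had −0.14 with siRNA.2 (adjusted p = 0.207). PIK3R1 (−0.19 and −0.04) and PIK3R2 (−0.15 and −0.03) passed the test with neither. A wider list held 48 tested genes outside the region that are subunits, family members or otherwise tied to members. Of these 12 rose (25%) and 12 fell (25%) with siRNA.1, and 11 rose (22.9%) and 10 fell (20.8%) with siRNA.2. Among genes of at least 0.5 FPKM, 20% and 21.1% rose and 20.5% and 20.3% fell. TNK2, a non-receptor tyrosine kinase, had −0.21 (adjusted p = 0.0636) and −0.31 (adjusted p = 0.00256). IL1RAP had −0.30 and −0.28, and PPP1R2, an inhibitor of protein phosphatase 1, had −0.30 and −0.26. The calls of IL1RAP were lost by limma with both siRNAs (adjusted p up to 0.0862 and 0.0877 over all settings), and that with siRNA.1 also without siRNA.1 1. The call of PPP1R2 with siRNA.2 was lost without siRNA.2 1 (adjusted p up to 0.0821).

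Transcription and chromatin members gave 2 rises and 4 falls of 12 with siRNA.1 and 3 rises and 4 falls with siRNA.2. PHC3, MECOM, TBL1XR1 and RNF168 were the fallers with each siRNA. For PHC3 the libraries of each siRNA overlapped the controls. MECOM, a zinc finger transcription factor, stood at 4.32, 3.94 and 3.93 FPKM with control siRNA, at 2.79, 3.12 and 2.81 with siRNA.1 and at 2.89, 2.6 and 2.71 with siRNA.2. The controls lay above all other libraries. The log2 fold changes were −0.51 ± 0.09 and −0.58 ± 0.09.

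RNF168, a ubiquitin ligase that marks histone H2A at DNA double-strand breaks, lies about 0.3 Mb from LINC00885. It stood at 6.11, 6.12 and 5.73 FPKM with control siRNA, at 4.93, 5.15 and 5.18 with siRNA.1 and at 4.52, 3.74 and 4.63 with siRNA.2. The 3 groups did not overlap, though the siRNAs did not pass a direct test (−0.23, adjusted p = 0.0973). The log2 fold changes were −0.26 ± 0.09 (adjusted p = 0.0176) and −0.49 ± 0.09 (adjusted p = 1e-06), and the former was lost by limma and without any one of control siRNA 1, control siRNA 2 and siRNA.1 1 (adjusted p from 0.0166 to 0.0762 over all settings). ETV5, a transcription factor of the ETS family, stood at 1.91, 1.52 and 2.13 FPKM with control siRNA, at 3.06, 3.11 and 3.21 with siRNA.1 and at 2.16, 2.52 and 2.47 with siRNA.2. Its rise was larger with siRNA.1 (0.72 ± 0.12) than with siRNA.2 (0.35 ± 0.12), with a direct difference at an adjusted p of 0.0159. The call with siRNA.2 was lost by limma and without control siRNA 2, siRNA.2 2 or siRNA.2 3 (adjusted p from 0.00579 to 0.244), and the direct one by limma and without siRNA.1 3 or siRNA.2 1 (0.0101 to 0.142). BCL6, a transcriptional repressor, had −0.48 and −0.10 and did not pass the test.

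Of 9 members of the ubiquitin and SUMO systems, 4 were called with siRNA.1, each lower, and with siRNA.2 3 fell and 1 (WDR53) rose. DCUN1D1, which helps attach NEDD8 to cullins, stood at 10.7, 9.98 and 10.9 FPKM with control siRNA, at 7.03, 7.36 and 7.29 with siRNA.1 and at 9.05, 9.54 and 8.88 with siRNA.2. The groups did not overlap, with siRNA.2 in between. The deubiquitinase USP13 stood at 1.24, 1.64 and 1.22 FPKM with control siRNA and fell to 0.77, 0.95 and 0.87 with siRNA.1. With siRNA.2 it had 1.39, 1.11 and 1.42, which overlapped the controls. KLHL24, a substrate adaptor of a cullin ligase, had −0.29 (adjusted p = 0.103) and −0.63 (adjusted p = 2.93e-05).

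Mitochondrial and peroxisomal members gave 3 falls and 1 rise of 8 with siRNA.1 and 2 falls and 1 rise with siRNA.2. MFN1, which fuses the outer mitochondrial membrane, stood at 12.2, 12.5 and 12.2 FPKM with control siRNA, at 7.85, 9.02 and 7.68 with siRNA.1 and at 12, 12.3 and 11.9 with siRNA.2. The siRNA.1 libraries were below all others, and those of siRNA.2 overlapped the controls. The log2 fold change was −0.62 ± 0.07 (adjusted p = 2.18e-19) with siRNA.1 and −0.04 ± 0.06 (adjusted p = 0.69) with siRNA.2. MFN2, the relative of MFN1 outside the region, had 0.02 with both and did not pass the test. OPA1, which fuses the inner membrane, fell by 0.27 and 0.23, while the rhomboid protease PARL had 0.17 and 0.20 and did not pass the test. EHHADH, an enzyme of peroxisomal fatty acid oxidation, fell by 0.37 and 0.31, the latter not without siRNA.2 3 or by limma (adjusted p from 0.00393 to 0.0788).

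Of 13 members listed under glycan and lipid metabolism, 1 rose and 5 fell with siRNA.1, and 1 rose and 4 fell with siRNA.2. The list also holds LMLN, a metalloprotease among the fallers with siRNA.2, and ABCC5, a transporter among the fallers with siRNA.1. The riser was ALG3, a mannosyltransferase that builds the N-glycan precursor in the endoplasmic reticulum. It stood at 10.9, 11.4 and 12.4 FPKM with control siRNA, at 19.1, 16.8 and 16.8 with siRNA.1 and at 14.7, 16.8 and 15.6 with siRNA.2. No library with a PARylator siRNA overlapped a control. The log2 fold changes were 0.57 ± 0.07 (adjusted p = 3.12e-14) and 0.43 ± 0.07 (adjusted p = 2.37e-08).

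NCEH1, a hydrolase of cholesterol esters, stood at 22.5, 21.5 and 21.9 FPKM with control siRNA, at 16, 16.1 and 16.7 with siRNA.1 and at 17, 17.4 and 16.8 with siRNA.2. The controls lay above all other libraries, and the falls were −0.46 ± 0.06 and −0.38 ± 0.06 on the log2 scale. PLAAT1, a phospholipase and acyltransferase, had 0.98 ± 0.55 and 1.00 ± 0.54 at under 1 FPKM with control siRNA, and passed the test with neither.

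**Figure D2:**
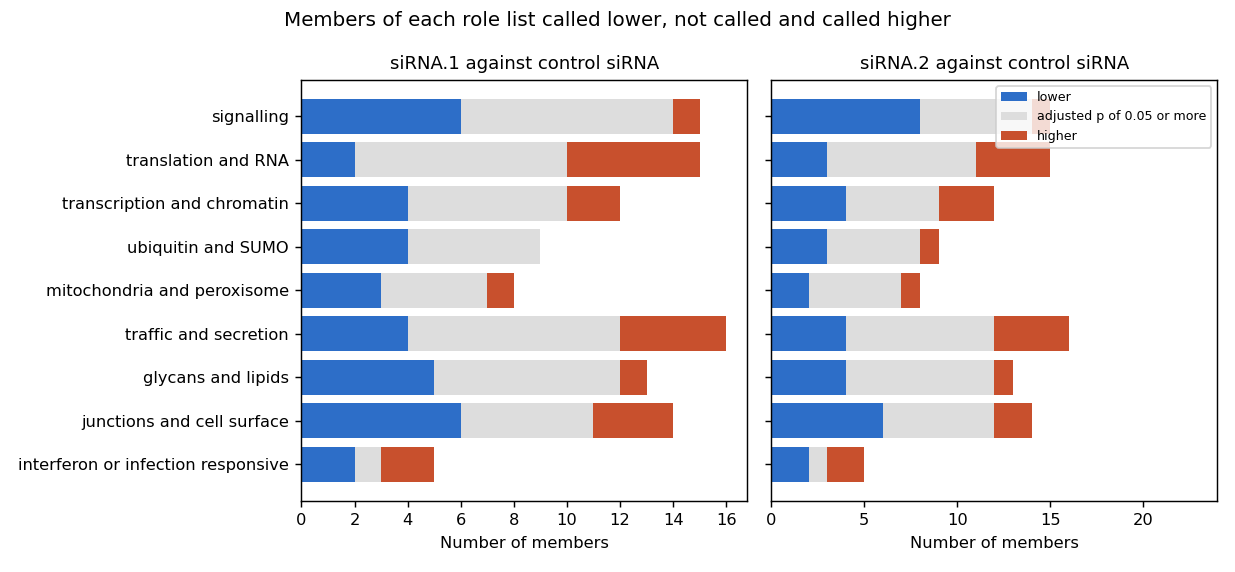
The number of members (horizontal axis) called lower (blue), not called (grey) and called higher (red) at an adjusted p under 0.05 is drawn for each role list and each siRNA, and some members stand in more than 1 list. Signalling members have 6 falls and 1 rise with siRNA.1 and 8 falls and 1 rise with siRNA.2, and traffic and secretion members have 4 of each, with no test between lists.

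**Figure D3:**
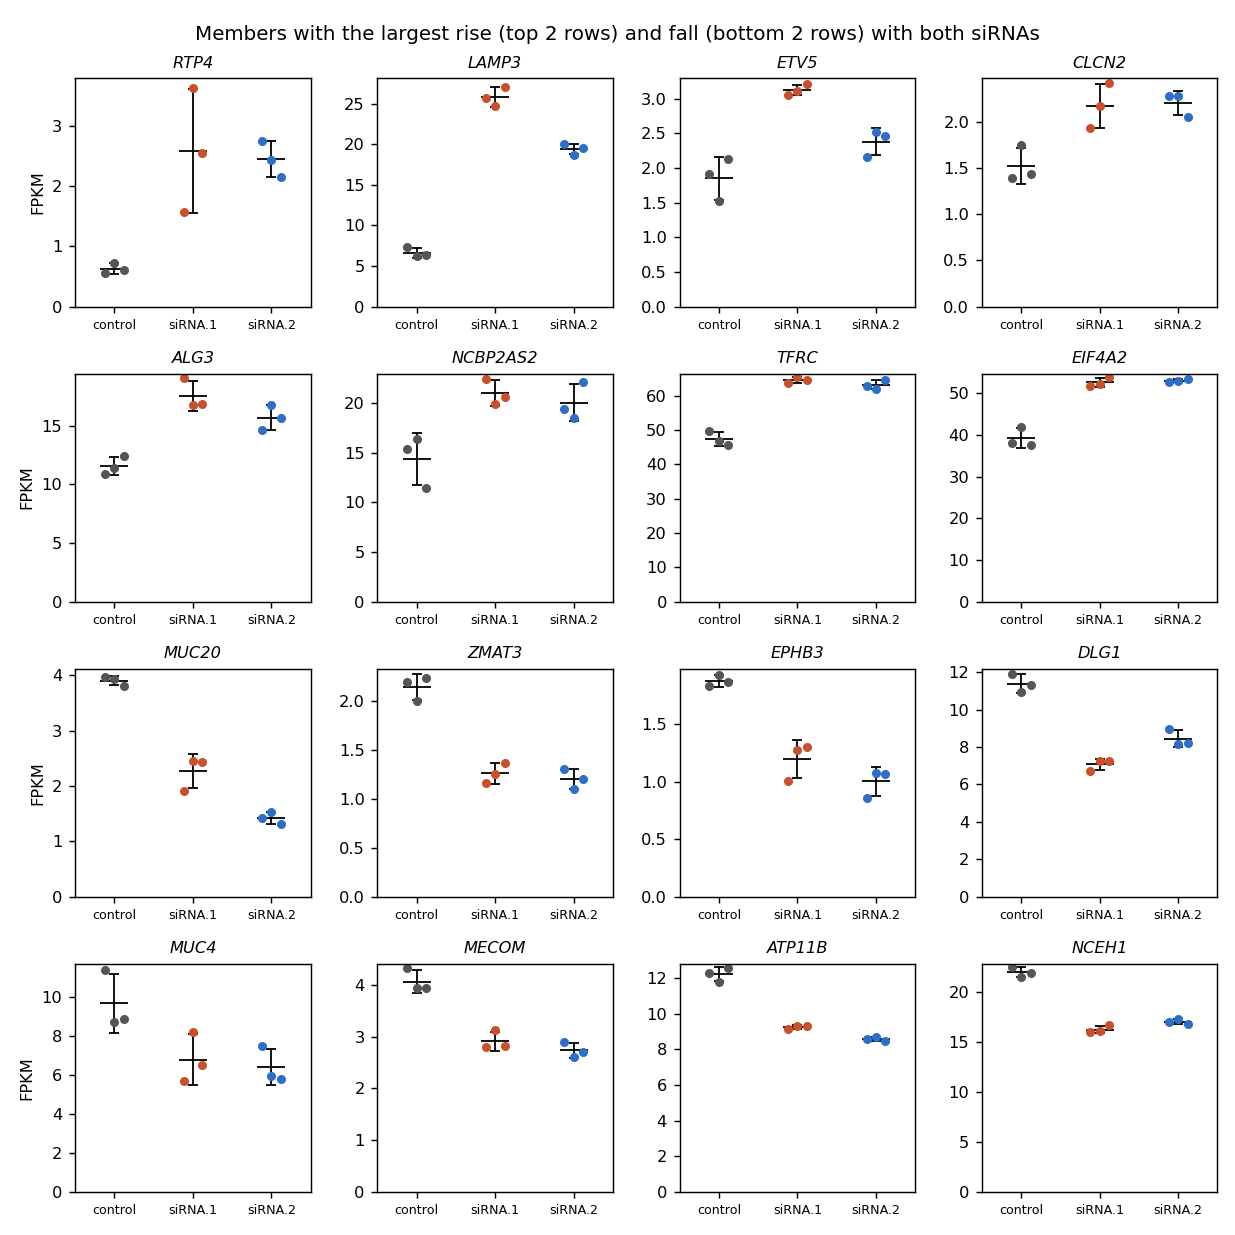
FPKM of the members with the largest rises and falls among those called with both siRNAs, at 1 FPKM or more and with no overlap with the controls, are drawn by library (points) with the mean and SD (bars, n = 3). The axes start at 0. RTP4 and LAMP3 change by the largest factor, and most others by less than 2-fold.

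Within 1 Mb of LINC00885, measured between gene starts, lay 30 members. With siRNA.1 2 of them rose (6.67%) and 10 fell (33.3%), and with siRNA.2 3 rose (10%) and 8 fell (26.7%). Among all genes of at least 0.5 FPKM, 20% rose and 20.5% fell with siRNA.1, and 21.1% rose and 20.3% fell with siRNA.2. Of the 94 members farther away, 18.1% rose and 21.3% fell with siRNA.1, and 16% rose and 24.5% fell with siRNA.2. The median log2 fold change was −0.14 and −0.10 within 1 Mb and 0.02 and −0.00 beyond. No other row overlapped 3 of the 30 (MUC4, SDHAP1 and NCBP2AS2), of which 1 rose and 1 fell with each siRNA, too few to describe the 30. The difference by distance was not tested, and the range of changes was wide on either side.

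The 5 nearest members on the centromeric side were TFRC, SDHAP1, TNK2, MUC4 and MUC20. SDHAP1 is a pseudogene of the succinate dehydrogenase subunit SDHA, and reads of the parent gene could be counted for it. It had −0.12 and 0.03, past no threshold. The 5 nearest on the telomeric side were PCYT1A, DYNLT2B, TM4SF19, UBXN7 and RNF168. PCYT1A, the rate-limiting enzyme of phosphatidylcholine synthesis, stood at 10.6, 10.3 and 10.6 FPKM with control siRNA, at 9.45, 9.27 and 9.23 with siRNA.1 and at 9.06, 10.1 and 10.1 with siRNA.2. It had −0.20 ± 0.06 (adjusted p = 0.00579) and −0.12 ± 0.06 (adjusted p = 0.137).

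UBXN7, an adaptor of the segregase p97, fell with siRNA.1 (−0.22 ± 0.06) and had −0.09 with siRNA.2. DYNLT2B, a dynein light chain, had −0.33 and −0.02, and TM4SF19 had 0.17 and −0.30 at under 1 FPKM. Neither passed the test. The closest neighbours of LINC00885 thus held a riser with both siRNAs (TFRC), fallers with both (MUC4, MUC20 and RNF168), and members that passed the test with 1 siRNA or with none.

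**Figure D4:**
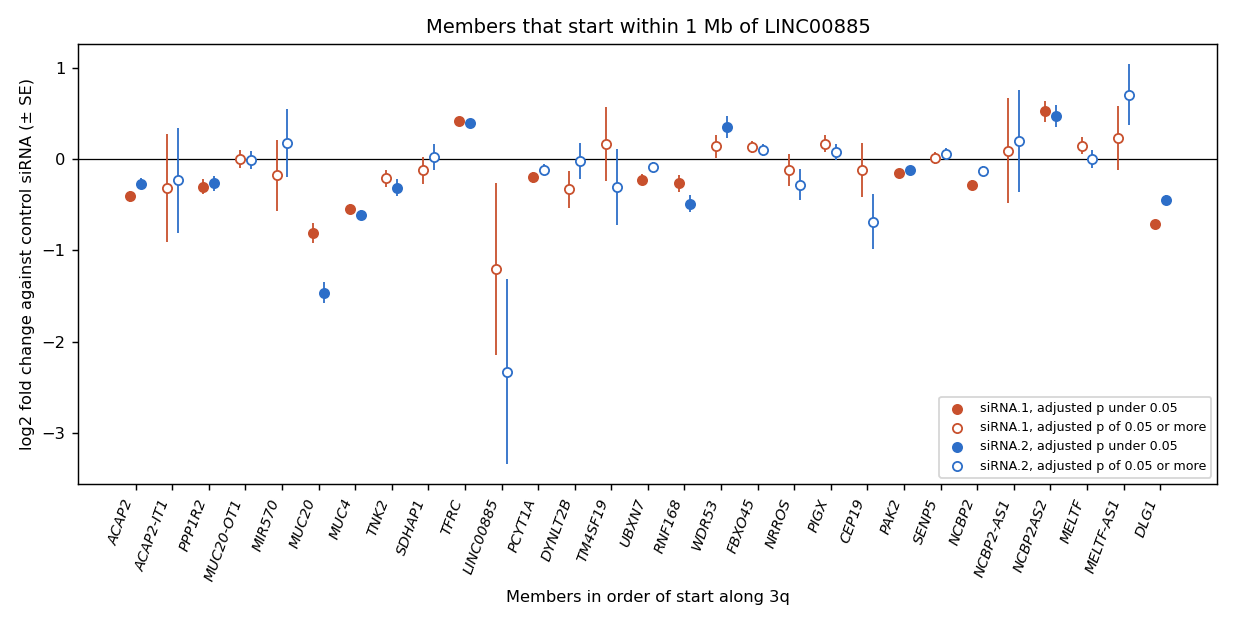
The log2 fold change against control siRNA (points, with SE as bars) is drawn for LINC00885 and the members that start within 1 Mb of it, in order along 3q. The small RNAs RNU6ATAC24P and RNU4-89P, whose SE was over 1, are not drawn. MUC20, MUC4 and DLG1 lie below 0 and TFRC and NCBP2AS2 above it with both siRNAs.

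Divergent neighbours did not always move together. Among pairs not shown above, ALG3 with EEF1AKMT4, CLDN1 with CLDN16 and WDR53 with FBXO45 had log2 fold changes above 0 with each siRNA. EHHADH with MAP3K13 and LPP-AS2 with LPP had opposite signs, and EIF2B5-DT with EIF2B5 was mixed. Not all of these changes passed the threshold. NCBP2, a subunit of the nuclear cap-binding complex, and NCBP2AS2 start 80 bases apart. NCBP2AS2 stood at 15.4, 16.4 and 11.4 FPKM with control siRNA, at 22.5, 20 and 20.7 with siRNA.1 and at 19.4, 18.6 and 22.2 with siRNA.2, a rise of 0.53 ± 0.12 and 0.47 ± 0.12. NCBP2 stood at 22.7, 23.6 and 24.3, then 19.5, 19.6 and 19.9, then 21.9, 22.2 and 21.3 FPKM. It thus fell with siRNA.1 (−0.29, adjusted p = 1.78e-06) and had −0.12 (adjusted p = 0.0646) with siRNA.2.

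CLCN2 and POLR2H, a subunit of the RNA polymerases, start 68 bases apart. CLCN2 rose by 0.48 ± 0.12 and 0.52 ± 0.11, and POLR2H had 0.15 (adjusted p = 0.0535) and 0.25 (adjusted p = 0.00059). IQCG and LMLN start 58 bases apart. IQCG had −0.23 and −0.15 and passed no threshold, while LMLN had 0.28 (adjusted p = 0.0954) and −0.41 (adjusted p = 0.0105, lost by limma and without control siRNA 3 or siRNA.2 1, with adjusted p up to 0.155). The difference between the genes of a pair was not tested.

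The siRNAs were also compared directly. In siRNA.2 against siRNA.1, 10 members were higher (8%) and 11 lower (8.8%). Of all genes tested 6.1% were higher and 6.07% lower, and of those at 0.5 FPKM or more 8.57% were higher and 8.39% lower, so the members' shares were near the background. The median log2 difference of the members was 0.01, and over all genes tested it was 0.00. No member passed the threshold in opposite directions with the 2 siRNAs.

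Among members that passed the direct test at 1 FPKM or more, the largest differences above 0 were those of CAMK2N2, an inhibitor of the kinase CaMKII (0.78 ± 0.23), USP13 (0.62 ± 0.11), MFN1 (0.58 ± 0.06) and DCUN1D1 (0.36 ± 0.06). CAMK2N2 stood at 1.44, 2.43 and 3.66 FPKM with control siRNA, at 1.4, 2.28 and 2.05 with siRNA.1 and at 3.48, 3.23 and 3.02 with siRNA.2. Its control libraries overlapped both other groups, and the difference was lost by DESeq2, by limma and without siRNA.1 1 (adjusted p from 0.00522 to 0.194). For MFN1 and USP13 the siRNA.2 libraries overlapped the controls, and those of siRNA.1 lay below. The difference of USP13 was lost by limma (adjusted p up to 0.111).

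The largest differences below 0 among them were those of LMLN, a zinc metalloprotease (−0.69 ± 0.13), MUC20 (−0.65 ± 0.12), LIPH, a phospholipase that makes lysophosphatidic acid (−0.54 ± 0.12), and FAM43A (−0.48 ± 0.17). The last was lost without any one of the siRNA.1 libraries, or siRNA.2 1 or 3 (adjusted p from 0.03 to 0.145). LMLN stood at 1.32, 1.23 and 1.44 FPKM with control siRNA, at 1.68, 1.62 and 1.65 with siRNA.1 and at 0.84, 1.11 and 1.08 with siRNA.2. LIPH stood at 4.01, 3.48 and 3.83, then 4.6, 4.49 and 4.82, then 3.5, 3.1 and 2.9 FPKM. The controls of LMLN lay between the siRNAs, and those of LIPH overlapped siRNA.2.

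**Figure D5:**
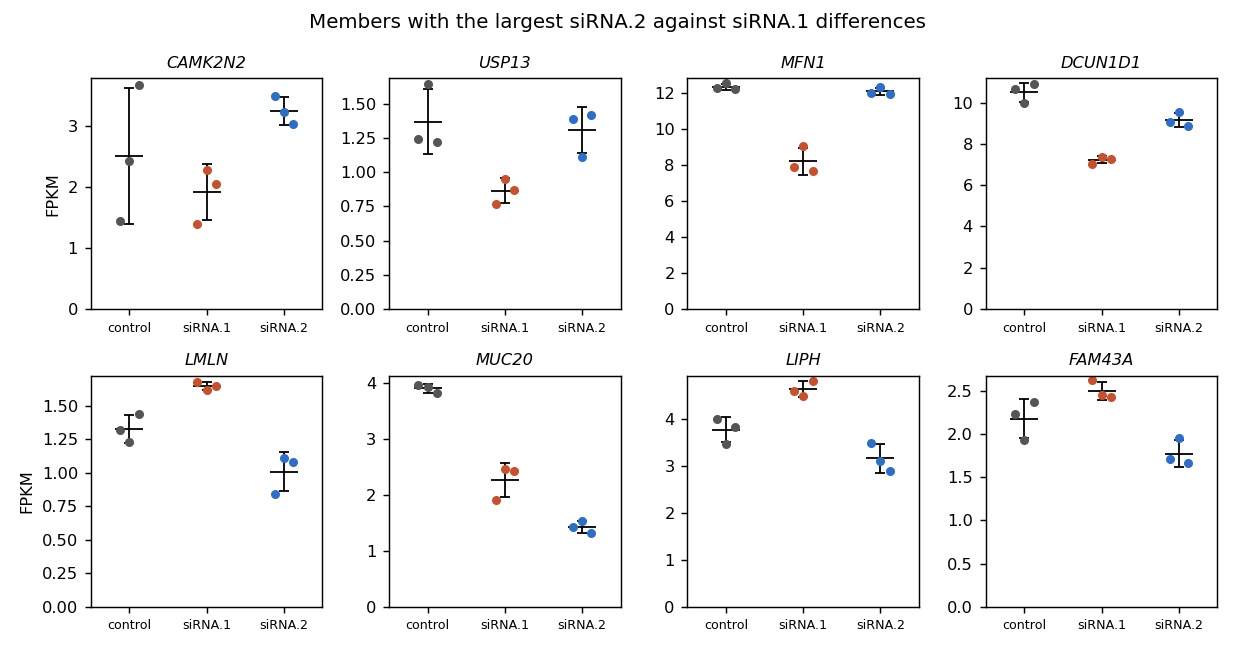
FPKM by library (points) with the mean and SD (bars, n = 3) are drawn for the members with the largest differences between the siRNAs among those that passed the direct test at 1 FPKM or more, with axes from 0. For MFN1 and USP13 the siRNA.1 libraries lie below the other groups, and for LMLN, LIPH and FAM43A they lie above those of siRNA.2.

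Among the 20 noncoding members other than LINC00885, the only call with each siRNA by edgeR was the rise of NMRAL2P, a pseudogene named here after its values were seen. It averaged 0.373 FPKM with control siRNA and reached the limit of 0.5 FPKM only through the siRNA libraries, so its rise is tied to its selection and is given as a description. It stood at 0.3, 0.46 and 0.36 FPKM with control siRNA, at 0.81, 1.04 and 1.13 with siRNA.1 and at 1.15, 0.48 and 0.83 with siRNA.2. It rose by 1.38 ± 0.34 and 1.11 ± 0.34 on the log2 scale. The extremes of the other noncoding members, −3.72 for RNU6ATAC24P and 3.03 for Y_RNA with siRNA.1, had an SE over 1 and passed no test.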

How the data were processed

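RNA-seq of TE13 cells was analysed from 1 table of the whole series. The authors isolated poly(A)+ RNA, sequenced it on a NovaSeq, aligned reads with STAR to GRCh38 and obtained counts by featureCounts (the build and the counter are named in the submitters' processing notes). Versions, annotation release and strandedness are not given in the sources used here. The authors deposited whole-number counts and FPKM of 60605 genes for each of 9 libraries. The FPKM served for selecting the members and giving levels, and the deposited counts for tests.

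The 21397 genes averaging 0.1 FPKM or more entered 1 fit of all 9 libraries in 3 groups by edgeR 4.0.16 (quasi-likelihood, TMM factors 0.989 to 1.02), in R 4.3.3. The p-values were adjusted after Benjamini and Hochberg over all genes, with a threshold of 0.05. Log2 fold changes are given with SE, FPKM with SD. With two-sided tests and 3 libraries per group, precision is limited by the number of libraries, and by counting error for low genes. The procedure was tested on simulated data. Coordinates are those of the table. Of the members, 112 had the same start and end in GENCODE 44, which gave gene types. Alternatives were DESeq2 1.42.0, limma 3.58.1 on log2(FPKM + a pseudocount of 0.1, 1 or 0.01), other scaling, filters and thresholds, a replicate block, and leaving out each library.

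Named were LINC00885, PIK3CA, EIF4G1, the 5 members nearest to LINC00885 on either side, the 5 of highest mean FPKM, the 8 in each direction with the largest mean log2 fold change among those called with both siRNAs at 1 FPKM or more without overlap, the 4 in each direction with the largest siRNA difference among those past the direct test at 1 FPKM or more, up to 4 of each role list and any member called in opposite directions. The members and lists were chosen with earlier results of these data known. Tables were written with Python 3.11.15, pandas 2.3.3 and scipy 1.17.1, and figures with matplotlib 3.10.9.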

Additional observations from a re-analysis of the deposited data

Results flagged for a closer look

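The 8 members given here differed in the direct test of siRNA.2 against siRNA.1 (edgeR, adjusted over all genes). They are the 4 in each direction with the largest difference among those past the threshold at 1 FPKM or more. Other named members passed this test too, among them LAMP3, CLDN1, DLG1 and ETV5 (above). The log2 fold change was 0.78 for CAMK2N2 (adjusted p = 0.00744), 0.62 for USP13 (adjusted p = 1.39e-06), 0.58 for MFN1 (adjusted p = 1.42e-16) and 0.36 for DCUN1D1 (adjusted p = 4.38e-07). It was −0.69 for LMLN (adjusted p = 7.44e-06), −0.65 for MUC20 (adjusted p = 1.93e-06), −0.54 for LIPH (adjusted p = 8.47e-05) and −0.48 for FAM43A (adjusted p = 0.036). Libraries of siRNA.2 and siRNA.1 did not overlap in any of the 8, and the share of all genes without overlap was not counted. These members were picked for the size of this difference, so the values are a description. Groups of 3 libraries are too small for a search for single libraries that stand apart.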

How the results depend on the processing

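The limits are those of 3 libraries per group, of a target at 25, 11 and 6 summed counts, and of overlapping genes counted without a stated strand. Among named members, no result that passed the threshold in the main fit or under an alternative changed direction. Of 2622 comparisons of such members with the main fit, 37 changed sign, with the threshold passed in neither. Counts of calls have no direction to reverse. With a log2 fold change of at least 0.5 added, 6 and 4 members were higher and 9 and 8 lower with siRNA.1 and siRNA.2, and 3 higher and 3 lower between the siRNAs. Within 1 Mb of LINC00885, this left 1 and 0 higher and 3 and 2 lower. Among the 37 members that no other row overlaps (chosen after seeing the data), 5 and 7 were higher and 8 and 11 lower, 4 and 5 between the siRNAs, and of 3 within 1 Mb 1 was higher and 1 lower with each siRNA. With siRNA.1 the shares of the 37 were 13.5% higher and 21.6% lower, and with siRNA.2 18.9% and 29.7%. Genes of at least 0.5 FPKM had 20% and 20.5% with siRNA.1 and 21.1% and 20.3% with siRNA.2. Within 2 Mb, 5 were higher with siRNA.1. Between the siRNAs, 6 members were higher by DESeq2 and 5 by limma with each pseudocount, and 5 to 10 with a library left out, with 5 lacking siRNA.2 replicate 3 and 6 lacking siRNA.1 replicate 1. LINC00885 with siRNA.2 passed the threshold by DESeq2 (−2.43, adjusted p = 0.0472) and under no other alternative (adjusted p up to 0.236). The cause of these shifts was not tested, apart from the fewer genes that the narrower rules admit. The medians of members ranged from −0.08 to 0.01, from −0.05 to 0.00 and from −0.01 to 0.02 over all settings. Of 74 called results of named members, 60 kept their call under every setting and 14 lost it under 1 or more. Whether same-numbered libraries were paired is not stated. Correlations of their deviations ran from −0.154 to 0.076 and those of other pairs from −0.064 to 0.141, which cannot exclude a shared batch. A replicate block gave 17 members higher and 29 lower with each siRNA, and 8 higher and 11 lower between them.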
